A study of Mus musculus with 6 samples.

Results

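Cybb, Cyba, Ncf1, Ncf4, Rac2, Nox4, Nos2 and Arg1, genes of the NADPH oxidases and of the competing arginine enzymes, were described in mouse interscapular brown adipose tissue, the thermogenic fat pad of the upper back. The 8 genes were taken from the deposited gene table by symbol, and all 8 were among its 18507 genes. RNA of the tissue was sequenced from 3 Beclin1_KO mice (genotype Beclin1-/-, an adipocyte-specific knockout per the series title) and 3 WT mice (wild-type), all of background strain C57BL/6. Animals of both groups were dosed by mouth with tamoxifen, 75 mg/kg on 5 days in a row, to switch on Cre, per the labels' protocol, although a treatment tag of every sample reads untreated. All were fed chow and housed at 22 °C with 12 h of light. The sources used here give neither the driver of the Cre nor age or sex. The tissue was sequenced whole, so a lower or higher value can come from the number of cells of a type or from the RNA per cell, and these cannot be told apart.

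NADPH oxidases move electrons from NADPH across a membrane onto oxygen and so make superoxide or hydrogen peroxide. The phagocyte enzyme joins Cybb, the catalytic subunit gp91-phox, with its membrane partner Cyba, p22-phox, and is switched on when cytosolic subunits, among them those encoded by Ncf1 and Ncf4, and the small GTPase Rac2 reach the membrane. Nox4 is a catalytic homologue found mainly outside blood cells, which also pairs with Cyba and does not need the cytosolic subunits. Nos2, inducible nitric oxide synthase, and Arg1, arginase, both consume arginine and are textbook markers of opposite states of mouse macrophage activation.

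The promoter windows of Cybb, Ncf1, Cyba and Nox4 are shown because these genes, each a part of an oxidase, rose in the knockout tissue. RefSeq promoter sequences, 250 bases before to 50 bases after the annotated start on build GRCm38, were matched for 4 of the 8 genes. Capitals mark matches on either strand to GAGGAA, the core of the motif of the myeloid factor PU.1, to GAAA and GAAA with 2 bases between them, as in the interferon-stimulated response element, or to GGGA and CC with 4 bases between them, as in the NF-kappaB motif. The windows are chrX:9469275-9469574 (minus strand), chr5:134229576-134229875 (minus strand), chr8:122432891-122433190 (minus strand) and chr7:87246399-87246698 (plus strand), in the order printed. Those of Cybb and Nox4 lie inside the annotated span of the gene, at a start downstream of its outer end.
Cybb: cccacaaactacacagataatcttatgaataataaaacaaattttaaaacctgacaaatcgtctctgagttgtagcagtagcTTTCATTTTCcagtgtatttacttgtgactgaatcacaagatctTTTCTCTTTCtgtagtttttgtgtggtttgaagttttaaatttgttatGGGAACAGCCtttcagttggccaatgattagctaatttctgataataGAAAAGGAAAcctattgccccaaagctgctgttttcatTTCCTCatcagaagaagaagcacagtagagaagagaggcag
Ncf1: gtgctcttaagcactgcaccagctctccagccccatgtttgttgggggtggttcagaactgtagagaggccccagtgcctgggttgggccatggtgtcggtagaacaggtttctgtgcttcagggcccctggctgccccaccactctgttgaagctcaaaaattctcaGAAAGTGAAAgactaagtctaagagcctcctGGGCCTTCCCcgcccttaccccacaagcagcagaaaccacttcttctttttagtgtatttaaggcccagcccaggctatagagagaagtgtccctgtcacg
Cyba: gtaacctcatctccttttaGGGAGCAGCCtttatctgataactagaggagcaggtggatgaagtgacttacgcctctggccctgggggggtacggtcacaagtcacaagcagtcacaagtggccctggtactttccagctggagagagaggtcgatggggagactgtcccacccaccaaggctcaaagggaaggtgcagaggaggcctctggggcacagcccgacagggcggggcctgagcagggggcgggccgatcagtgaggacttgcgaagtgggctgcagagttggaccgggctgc
Nox4: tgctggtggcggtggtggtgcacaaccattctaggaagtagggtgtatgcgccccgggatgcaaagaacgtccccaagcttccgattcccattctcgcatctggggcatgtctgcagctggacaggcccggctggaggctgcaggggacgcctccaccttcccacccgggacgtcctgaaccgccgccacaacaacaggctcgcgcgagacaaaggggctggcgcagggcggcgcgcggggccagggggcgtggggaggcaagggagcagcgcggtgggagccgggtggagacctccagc

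The Cybb window held 3 matches to the interferon-stimulated response element, beginning 168, 124 and 29 bases before the start, and the Ncf1 window held 1, beginning 82 bases before it. Such a match was present in 3.44% of 32851 promoter windows of the same length. The PU.1 core was found once among the 4 windows, in that of Cybb from base 10 after the start, against 28.3% of all windows. The NF-kappaB letters matched 1 time each in Cybb, Ncf1 and Cyba, against 20.7% of all windows. The Nox4 window held no match to any of these, nor to TATAAA, which was absent from all 4 windows and present in 13.6% of all. No 2 motifs overlapped. G and C made up 35.3% of the Cybb window, 54.0% of that of Ncf1, 60.7% of that of Cyba and 68.3% of that of Nox4, against a median of 52.7% over all windows. A match to letters is a description and says nothing about binding.

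Total counts were 50536315 to 60983193 per Beclin1_KO library and 44269031 to 50842488 per WT library. Libraries were scaled by TMM, a correction for differences in RNA composition, and values are given as CPM (counts per 1000000 scaled reads) with the SD over 3 libraries. Of 15347 genes tested by edgeR's quasi-likelihood test, 7150 passed an adjusted p of 0.05, or 46.6%. Higher genes made up 53.3% of these calls, against 74.2% on the FPKM scale, where log2 fold changes were higher by a median of 0.32. Becn1, the targeted gene, stood at 58.0, 53.8 and 42.7 CPM in Beclin1_KO and at 82.8, 86.4 and 89.2 CPM in WT (log2 fold change -0.74, SE 0.13, adjusted p = 0.00411). Brown fat markers were present in every library: Ucp1, the uncoupling protein, was at 1325, 1622 and 2750 CPM in Beclin1_KO and at 9526, 8075 and 11650 CPM in WT. Summed skeletal muscle markers varied within both groups, from 1492 to 37660 CPM in Beclin1_KO and from 673 to 19780 CPM in WT, and none of the 10 passed.

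Among the 8 genes, the 6 oxidase genes rose and Nos2 fell, while Arg1 had too few counts to be tested. The 7 tested genes had at least 19 reads in every library, so each passed the low-count filter in both groups. Of all genes tested, 24.8% rose and 21.8% fell. All 6 oxidase genes rose at least 8-fold, as did 6.2% of all genes tested. The CPM ranges of the groups did not overlap for these 6 genes and for Nos2. Of all genes tested, 59.7% showed no overlap, 31.4% with Beclin1_KO higher and 28.2% with it lower. The 12 macrophage markers (Lyz2 the most abundant) all rose in the same libraries, to a sum of 4401 to 7268 CPM in Beclin1_KO, against 264 to 303 CPM in WT, with a median log2 fold change of 4.06. Markers of fibroblasts and their progenitors also rose, 7 of 8, to a sum of 7660 to 12750 CPM in Beclin1_KO, against 1626 to 2344 CPM in WT. Ratios to the macrophage marker sum are given below, and none were made to the fibroblast and progenitor markers. The part of either cell type in the changes of the 8 genes was not tested.

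Cybb showed the largest log2 fold change of the 8 genes. This gene (Entrez Gene 13058, chromosome X, 9435252 to 9487766, GRCm38, as for all positions given) had 196, 151 and 112 CPM in the Beclin1_KO libraries and 6.43, 7.68 and 4.87 CPM in the WT libraries. Every knockout library lay more than 10-fold above every WT library. The rise was 24.2-fold (log2 fold change 4.59, SE 0.28, adjusted p = 9.31e-05). It ranked 296 from the top of 15347 genes.

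Nox4 (Entrez Gene 50490, chromosome 7, 87244430 to 87398710), the homologue of non-phagocytic cells, rose at a much lower level. Its values were 11.1, 13.6 and 5.69 CPM in Beclin1_KO and 0.676, 0.804 and 0.451 CPM in WT. The knockout libraries spread widely but stayed apart from WT, with a coefficient of variation of 40.0% in Beclin1_KO, the highest among the 7 tested genes, and 27.7% in WT. The rise was 15.7-fold (log2 fold change 3.97, SE 0.42, adjusted p = 0.000519). Unlike the phagocyte subunits, Nox4 was highest in knockout replicate 2, the library with the highest sum of fibroblast and progenitor markers (12750 CPM, against 11710 in replicate 1 and 7660 in replicate 3) and also of lymphocyte (67.0 CPM) and smooth muscle markers (727 CPM). The smooth muscle sum was lower in Beclin1_KO (635 to 727 CPM) than in WT (859 to 1082 CPM). The part of fibroblasts, lymphocytes and smooth muscle cells in the level of Nox4 was not tested. With a pseudocount of 1 on the FPKM scale, which understates changes of low genes, the log2 fold change was 1.76.

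Cyba (Entrez Gene 13057, chromosome 8, 122424771 to 122432940), the partner that both catalytic subunits need, had 192, 166 and 129 CPM in Beclin1_KO and 12.6, 11.4 and 11.4 CPM in WT. Its annotation lies within that of Gm20388 on the opposite strand in GENCODE M21, which shares 8155 bases with it. The WT libraries lay close together, with a coefficient of variation of 5.92%, against 19.4% in Beclin1_KO. It rose 13.7-fold (log2 fold change 3.78, SE 0.17, adjusted p = 4.78e-05).

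The cytosolic subunits rose by similar amounts. Ncf1 (Entrez Gene 17969, chromosome 5, 134220053 to 134229628), the organiser p47-phox, had 72.7, 67.7 and 44.8 CPM in Beclin1_KO and 3.91, 4.69 and 4.49 CPM in WT, a 14.1-fold rise (log2 fold change 3.82, SE 0.22, adjusted p = 7.23e-05). Its annotation shares 4303 bases with Gtf2ird2 on the opposite strand in GENCODE M21. Whether reads were counted by strand, for this gene or Cyba, is not known from the labels. Gtf2ird2 itself stood at 10.6 ± 1.12 CPM in Beclin1_KO and 9.38 ± 1.06 CPM in WT (adjusted p = 0.400). Ncf4 (Entrez Gene 17972, chromosome 15, 78244164 to 78262582), p40-phox, had 30.7, 23.2 and 22.1 CPM in Beclin1_KO and 1.74, 1.47 and 1.47 CPM in WT, a 16.2-fold rise (log2 fold change 4.02, SE 0.19, adjusted p = 5.19e-05). Both genes were highest in knockout replicate 1 and lowest in replicate 3, as were Cybb and Cyba.

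Rac2 (Entrez Gene 19354, chromosome 15, 78559169 to 78572783), the Rac GTPase of blood cells, had 72.8, 65.2 and 60.6 CPM in Beclin1_KO and 5.97, 7.19 and 4.94 CPM in WT. It varied least of the 7 tested genes in the knockouts, with a coefficient of variation of 9.30%. The rise was 11.0-fold (log2 fold change 3.46, SE 0.17, adjusted p = 5.33e-05). When the libraries richest in muscle markers (Beclin1_KO replicate 1 and WT replicate 2) were left out, the log2 fold changes of the 6 oxidase genes were 3.53 for Rac2, 4.54 for Cybb, 3.62 for Cyba, 3.74 for Ncf1, 3.81 for Ncf4 and 4.09 for Nox4, and all 6 passed.

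**Figure D1:**
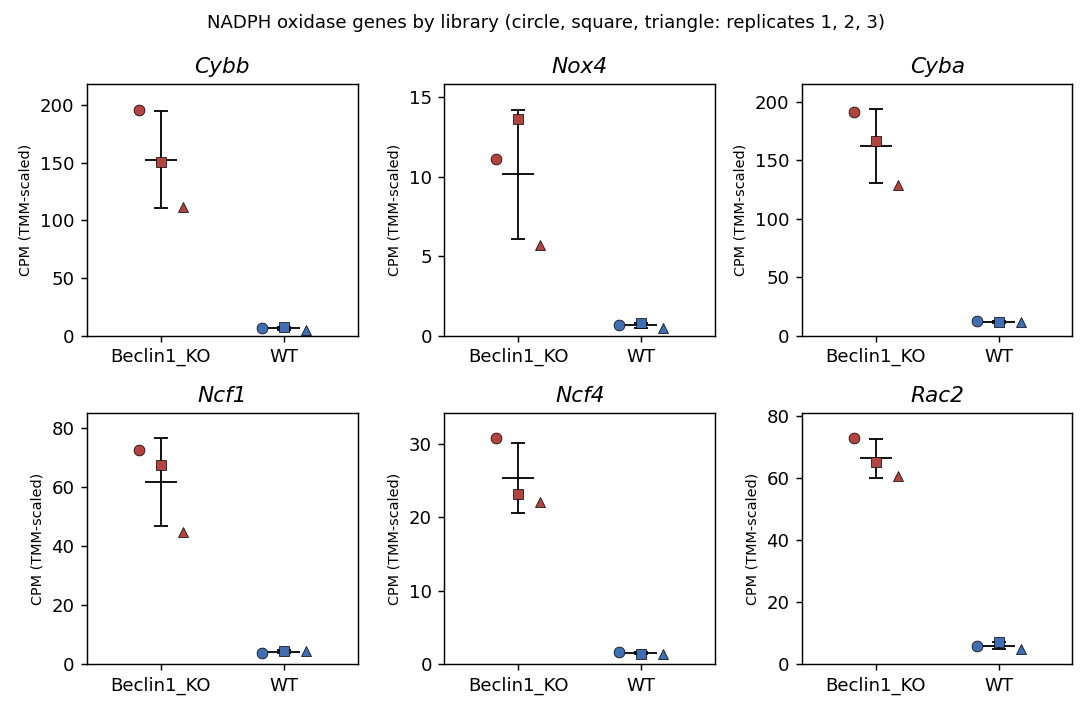
Plot of TMM-scaled CPM (vertical axis) of 6 NADPH oxidase genes in the 3 Beclin1_KO libraries (left) and the 3 WT libraries (right); each point is a library, and the bar gives the mean and SD of 3 libraries. Knockout points lie above all WT points for every gene, and Nox4 has the highest coefficient of variation in the knockouts, 40.0%.

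Further genes of the oxidases moved in both directions. Hvcn1, the proton channel that balances the charge moved by the phagocyte oxidase, rose 10.6-fold to 37.7 ± 11.3 CPM in Beclin1_KO, against 3.56 ± 0.210 CPM in WT (adjusted p = 0.000129). BC017643, listed by this older symbol and also known as Cybc1, a chaperone for the Cybb and Cyba pair, rose 2.55-fold to 51.8 ± 7.52 CPM, against 20.3 ± 1.57 CPM in WT (adjusted p = 0.000463). Rac1, the widely expressed Rac, was at 298 ± 6.30 CPM in Beclin1_KO and 236 ± 9.54 CPM in WT (log2 fold change 0.34, adjusted p = 0.0361), and this call held in 11 of 18 alternatives (adjusted p 0.00161 to 0.196).

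Poldip2, which binds p22-phox and has been described as an activator of Nox4, fell 1.88-fold to 163 ± 48.6 CPM in Beclin1_KO, against 307 ± 39.4 CPM in WT (adjusted p = 0.0155), and passed in 15 of 18 alternatives. Noxo1, the organiser of the epithelial oxidase, stood at 2.49 ± 0.269 CPM in Beclin1_KO and 3.81 ± 1.50 CPM in WT (adjusted p = 0.162). Nox1, Duox1, Duox2, Duoxa1 and Duoxa2 had at most 16 reads in any library and were not tested.

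**Figure D2:**
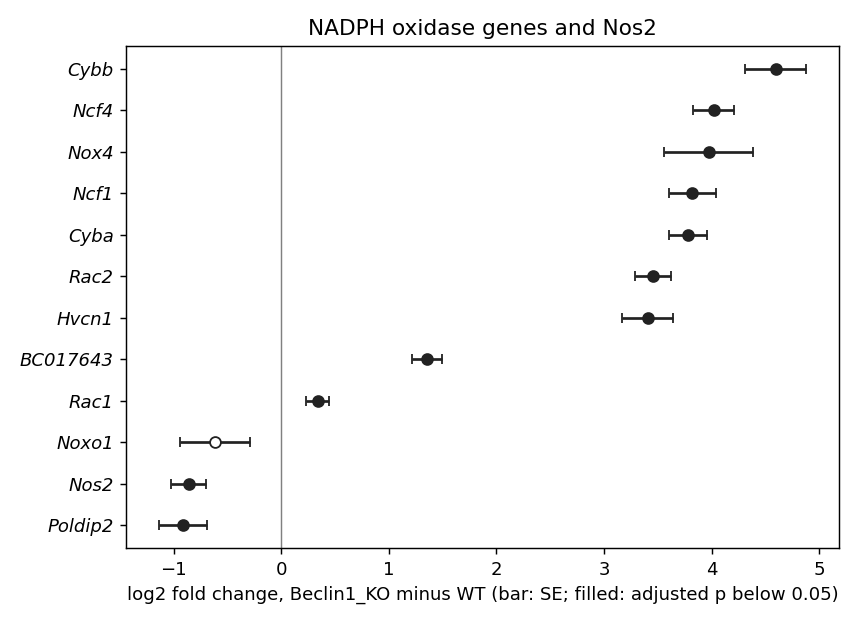
Plot of the log2 fold change, Beclin1_KO minus WT (horizontal axis, bars give the SE), of oxidase genes and Nos2; filled points passed an adjusted p of 0.05. Cybb, Cyba, Ncf1, Ncf4, Rac2, Nox4 and Hvcn1 lie between 3.41 and 4.59, BC017643 and Rac1 lie nearer 0, and Noxo1 (open), Nos2 and Poldip2 lie below it.

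Many genes that act on the phagocyte oxidase or its Rac switch rose. Of 25 listed, among them receptors, kinases, phospholipases, Rac exchange factors and calcium-binding proteins, 18 rose and 7 did not pass. The median log2 fold change was 2.66, against 0.05 over all genes tested, of which 24.8% rose and 21.8% fell. Vav1, a Rac exchange factor of blood cells, rose 23.1-fold to 58.8 ± 7.49 CPM in Beclin1_KO, against 2.54 ± 0.612 CPM in WT (adjusted p = 5.19e-05), and Dock2, another such factor, rose 14.5-fold (adjusted p = 5.65e-05). The integrin pair Itgam and Itgb2 rose 14.0-fold and 21.2-fold (adjusted p = 5.98e-05 and 7.12e-05). The 18 also include Arhgdia and Arhgdib, which hold Rac in its inactive form and rose 1.72-fold and 5.31-fold (adjusted p = 0.00195 and 0.000155), and were named after their values were seen. Vav1, Dock2, Itgam and Itgb2 are genes of leukocytes, and the macrophage marker sum given above was higher in the same libraries. The part of leukocytes in the changes of these genes was not tested.

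Neutrophils carry the same oxidase as macrophages, and most of their defining markers were near 0 reads. Ly6g had 0 reads in all 3 Beclin1_KO libraries, where 3 reads would be 0.0443 to 0.0545 CPM, and 0, 0 and 5 reads in WT. Camp, Ctsg, Ltf, Ngp and Retnlg had at most 23 reads in any library and were not tested. Of 13 neutrophil markers, 7 were tested, of which Csf3r and Mmp8 rose and 5 did not pass. The sum of all 13 was 26.6 to 42.9 CPM in Beclin1_KO and 5.05 to 10.7 CPM in WT. Csf3r, a receptor that monocytes also carry, made up 38.0, 23.0 and 19.9 CPM of it in Beclin1_KO and 2.78, 3.37 and 2.37 CPM in WT. Among 11 lymphocyte markers, 7 rose and 2 fell, and their sum was 38.7 to 67.0 CPM in Beclin1_KO and 6.53 to 11.9 CPM in WT. Over all genes tested, 24.8% rose and 21.8% fell.

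Levels of different genes were compared per length, as FPKM. In Beclin1_KO, Cyba was highest at 237 ± 45.3 FPKM, ahead of Cybb at 35.6 ± 9.35, Ncf1 at 25.2 ± 6.29, Rac2 at 24.1 ± 2.09 and Ncf4 at 19.2 ± 3.11 FPKM, and neighbours among these last 4 overlapped in their library values. Nos2 at 3.39 ± 0.485 and Nox4 at 3.02 ± 1.3 FPKM also overlapped, and Arg1 came last at 0.309 ± 0.297 FPKM. In WT, Cyba again led at 13.6 ± 1.49 FPKM, but Nos2 came next at 4.82 ± 1.02 FPKM. It stood above Rac2 at 1.73 ± 0.379, Ncf1 at 1.38 ± 0.110, Cybb at 1.16 ± 0.299 and Ncf4 at 0.932 ± 0.144 FPKM, which overlapped as neighbours. Nox4 at 0.144 ± 0.0441 and Arg1 at 0.0206 ± 0.0279 FPKM came last.

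Ratios within a library do not depend on scaling between libraries. Of 12 ratios tested by a two-sided exact permutation test over the 6 libraries, the smallest p that 3 against 3 allows is 0.1, so none could pass 0.05, and the lowest adjusted p was 0.171. Cybb per Cyba, in FPKM, was 0.163, 0.145 and 0.138 in Beclin1_KO and 0.081, 0.107 and 0.0675 in WT, without overlap (exact p = 0.1). Rac2 per Rac1 was 0.186, 0.160 and 0.153 in Beclin1_KO and 0.0194, 0.0233 and 0.0150 in WT, also without overlap (exact p = 0.1). Cybb per Nox4 was 13.9, 8.77 and 15.6 in Beclin1_KO and 7.88, 7.90 and 8.83 in WT, with replicate 2 of the knockouts inside the WT range (exact p = 0.2).

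Set against the 12 summed macrophage markers of the same library, the oxidase genes differed far less between the groups than in CPM. Such a sum weighs its most abundant gene, Lyz2, most. It was 19.6-fold higher in Beclin1_KO by group means, while the median log2 fold change of the 12 markers was 4.06. Cybb came to 2.70%, 2.82% and 2.54% of that sum in Beclin1_KO and 2.13%, 2.53% and 1.85% in WT, higher in the knockouts by 0.32 on the log2 scale, with the nearest libraries at 2.54% and 2.53% (exact p = 0.1). In FPKM this difference was 0.20 and the groups overlapped (exact p = 0.3), and in CPM without WT replicate 3 it was 0.21. Cyba was lower in the knockouts, at 2.89% ± 0.239, against 4.10% ± 0.287 in WT (exact p = 0.1). Ncf1 came to 1.09% ± 0.149 in Beclin1_KO and 1.52% ± 0.203 in WT, and Rac2 to 1.20% ± 0.188 in Beclin1_KO and 2.08% ± 0.261 in WT (exact p = 0.1 each). For these 3 genes the groups did not overlap. Ncf4 (0.453% ± 0.0423 in Beclin1_KO and 0.541% ± 0.0486 in WT, exact p = 0.2) and Nox4 (0.179% ± 0.0666 in Beclin1_KO and 0.220% ± 0.0470 in WT, exact p = 0.4) overlapped.

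**Figure D3:**
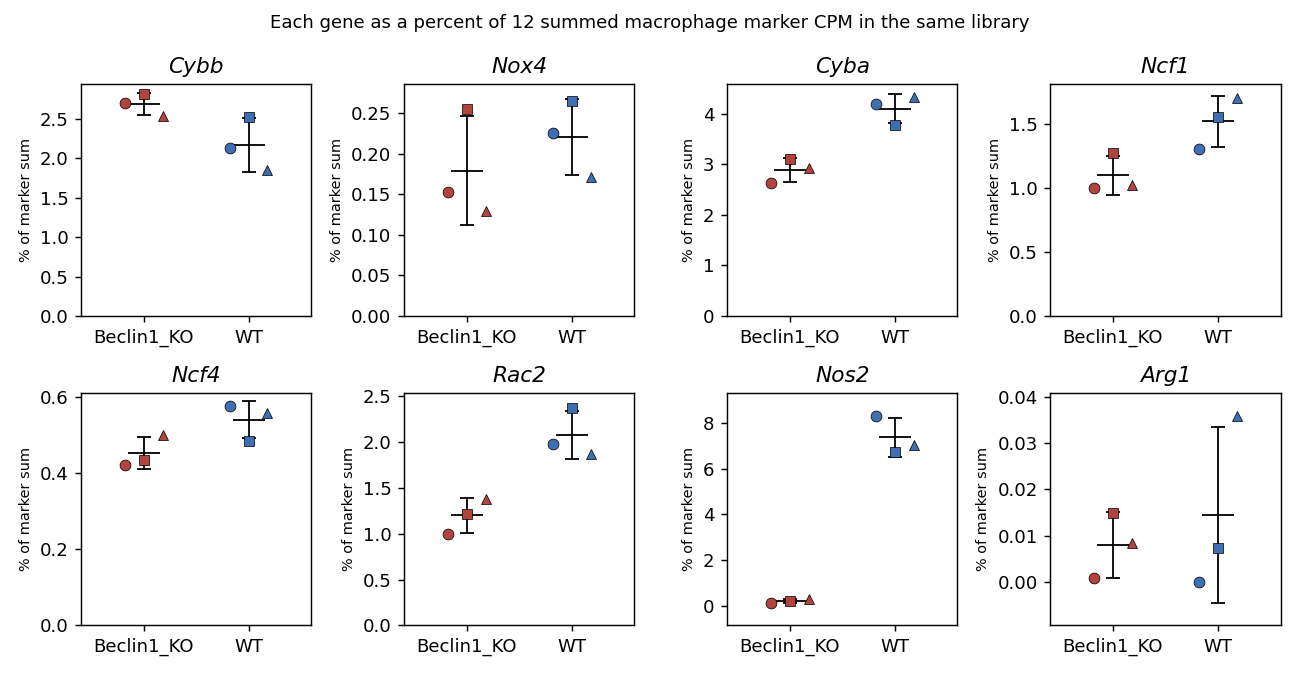
Plot of each of the 8 genes as a percent of the summed CPM of 12 macrophage markers (vertical axis) in the Beclin1_KO libraries (left) and WT libraries (right); bars give the mean and SD of 3 libraries. The log2 difference of the oxidase genes lies between -0.80 (Rac2) and 0.32 (Cybb), whereas Nos2 lies at 0.220% in Beclin1_KO and 7.36% in WT. The marker sum itself was 19.6-fold higher in Beclin1_KO by group means.

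Nos2 fell. This gene (Entrez Gene 18126, chromosome 11, 78920787 to 78960226) had 10.6, 11.1 and 13.6 CPM in Beclin1_KO and 25.0, 20.4 and 18.6 CPM in WT. The highest knockout library lay below the lowest WT library. Its level was 1.81-fold lower (log2 fold change -0.86, SE 0.16, adjusted p = 0.00562), and the authors' deposited table gives a signed fold of -1.81 with an adjusted p of 6.08e-05. The call depended on the scale: in FPKM, without composition scaling, the values were 2.90, 3.39 and 3.87 in Beclin1_KO and 5.90, 4.68 and 3.88 in WT, and the adjusted p by limma was 0.0784 with a pseudocount of 1 and 0.0773 with 0.1. On that scale the log2 fold change of Nos2 was -0.40 and -0.48, while all genes were higher by a median of 0.32 and 0.34 than by TMM. Without Beclin1_KO replicate 1 and WT replicate 2, the pair rich in muscle markers, Nos2 was at -0.82 (adjusted p = 0.0448). Nos2 was lower in the same libraries in which 9 of 10 adipocyte markers fell, to a sum of 8346 to 15510 CPM in Beclin1_KO, against 30630 to 36030 CPM in WT, and in which 5 of 8 endothelial markers fell, to 742 to 934 CPM in Beclin1_KO, against 1362 to 1590 CPM in WT. Another endothelial marker, Vwf, rose 2.13-fold (adjusted p = 0.000451) and was higher in all 18 alternatives. The count of lower endothelial markers was 2 on the FPKM scale, as also without the pair rich in muscle markers, which left 5 adipocyte markers lower. Over all genes tested, 24.8% rose and 21.8% fell. The part of adipocytes and endothelial cells in the change of Nos2 was not tested.

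Per macrophage marker, Nos2 was 0.146%, 0.208% and 0.308% in Beclin1_KO and 8.31%, 6.72% and 7.04% in WT, a log2 difference of -5.12 (exact p = 0.1). Every knockout library lay below every WT library. The marker sum itself was 19.6-fold higher in Beclin1_KO by group means, so a gene of unchanged CPM would also be lower on this measure. In CPM the log2 fold change of Nos2 was -0.86. Which cells carried Nos2 was not tested.

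Genes of arginine and nitric oxide metabolism moved in both directions, in shares near those of all genes tested (24.8% higher and 21.8% lower). Of 26 tested, 8 rose, 6 fell and 12 did not pass, with a median log2 fold change of 0.25, against 0.05 over all genes tested. On the FPKM scale 10 rose and 4 fell, and without the pair rich in muscle markers 8 rose and 4 fell. Nos3, the endothelial synthase, fell 2.47-fold, with 29.7, 33.8 and 35.8 CPM in Beclin1_KO and 71.0, 88.7 and 85.2 CPM in WT (adjusted p = 0.000382), and Cav1, the caveolin that holds it, fell 2.05-fold (adjusted p = 0.00303). Pts, an enzyme of the synthesis of tetrahydrobiopterin, the cofactor of all nitric oxide synthases, fell 3.05-fold to 29.9 ± 7.24 CPM, against 91.2 ± 10.3 CPM in WT (adjusted p = 0.00086). Spr, Qdpr and Gchfr, of the same cofactor route, also fell, although Spr and Qdpr did not pass on the FPKM scale (adjusted p = 0.0518 and 0.168 by limma), and Gch1, its first enzyme, rose 2.05-fold to 19.1 ± 5.88 CPM, against 9.31 ± 0.669 CPM in WT (adjusted p = 0.00944). These 4, outside the rule for naming genes, were named after their values were seen. Gatm, which uses arginine for creatine, rose 3.31-fold (adjusted p = 0.000755).

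Arg1 (Entrez Gene 11846, chromosome 10, 24915207 to 24927470) was close to absent. It had 3, 51 and 25 reads in the Beclin1_KO libraries and 0, 1 and 4 reads in the WT libraries. The groups overlapped, since knockout replicate 1 had fewer reads than WT replicate 3. The summed reads were 79 in Beclin1_KO (exact Poisson 95% interval 62.5 to 98.5) and 5 in WT (1.62 to 11.7), a depth-scaled ratio of 10.8 (4.45 to 34.3), where the intervals cover counting error only. Knockout replicate 2 held 64.6% of the knockout reads. Arg1 did not reach the low-count filter, and without a filter the log2 fold change was 3.32 (SE 1.32, adjusted p = 0.0894 by edgeR). DESeq2 on the same counts gave an adjusted p of 0.0472, and the authors' deposited table gives a signed fold of 10.4 with an adjusted p of 0.0463. Without Beclin1_KO replicate 1 the adjusted p was 0.0358. Over the 7 alternatives that could test it, 2 passed and the range was 0.0358 to 0.170.

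Per macrophage marker, Arg1 came to 0.008% ± 0.00707 in Beclin1_KO and 0.0145% ± 0.0190 in WT (exact p = 0.9), where the groups overlapped and the mean was lower in the knockouts. Arg1 per Nos2, in FPKM, was 0.0131, 0.184 and 0.0676 in Beclin1_KO and 0, 0.00203 and 0.0135 in WT (exact p = 0.2). In knockout replicate 1 this ratio lay within the WT range, and Nos2 exceeded Arg1 in all 6 libraries. Arg2, the mitochondrial arginase, was at 0.376 ± 0.124 CPM in Beclin1_KO and 0.0372 ± 0.0644 CPM in WT (adjusted p = 0.0489). It had 0, 5 and 0 reads in WT and passed in 8 of the 15 alternatives that could test it (adjusted p up to 0.128), a value named after it was seen.

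**Figure D4:**
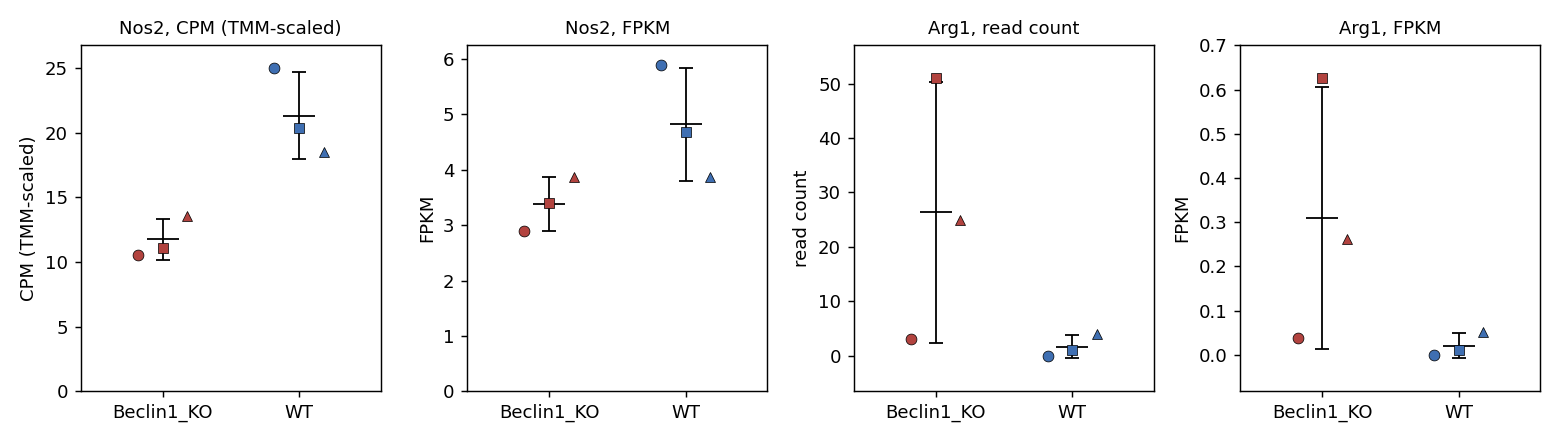
Plot of Nos2 in TMM-scaled CPM and in FPKM, and of Arg1 in reads and in FPKM (vertical axes), in Beclin1_KO (left) and WT (right) libraries; bars give the mean and SD of 3 libraries. The Nos2 groups are apart in CPM and nearly touch in FPKM, at 3.87 and 3.88, while Arg1 reaches 51 reads in only 1 knockout library.

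Companion genes of the classical state of macrophage activation, of which Nos2 is a marker, mostly rose. Of 14 listed, 12 were tested, 9 rose and 3 did not pass, against 24.8% higher and 21.8% lower over all genes tested. The median log2 fold change was 2.67, against 0.05 over all genes tested. Cxcl10, an interferon-induced chemokine, rose 5.28-fold to 10.8 ± 1.49 CPM in Beclin1_KO, against 2.04 ± 0.371 CPM in WT (adjusted p = 0.000308). The costimulatory genes Cd86 and Cd80 rose 7.66-fold and 8.88-fold, and the transcription factor Irf5 rose 10.5-fold (adjusted p = 0.000433, 0.000571 and 0.000948).

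Among companion genes of the alternative state, of which Arg1 is a marker, more rose than fell, and the difference between the lists was not tested. Of 18 listed, 14 were tested, 7 rose, Irf4 fell and 6 did not pass, against 24.8% higher and 21.8% lower over all genes tested. The median log2 fold change of the 14 was 1.01. This median moved with the filter: among genes with 1 CPM in all samples of a group, 7 of 11 rose with a median of 2.39, against 8 of 10 classical companions with a median of 2.68. Without the pair rich in muscle markers, 6 rose, with a median of 1.58, and Irf4 did not pass (adjusted p = 0.0580). Mrc1, the mannose receptor, rose 10.6-fold to 237 ± 13.1 CPM in Beclin1_KO, against 22.2 ± 2.56 CPM in WT (adjusted p = 2.91e-05), and Il4ra, Clec10a and Egr2 rose 7.82-fold, 8.66-fold and 8.28-fold. Retnla and Chil3, which with Arg1 make up the usual marker set in mice, stood at 7.69 ± 3.53 and 0.990 ± 0.506 CPM in Beclin1_KO and at 7.38 ± 4.55 and 1.19 ± 0.402 CPM in WT (adjusted p = 0.944 and 0.683). Il10 had 65, 82 and 82 reads in Beclin1_KO and 0 in every WT library, at least 17.4-fold higher when 3 reads per WT library are taken as the floor. The median of the list was 1.01 with Il10 at that bound. Retnla, Chil3 and Il10 were named after their values were seen. The macrophage marker sum was higher in Beclin1_KO, as were the sums of both lists, but the order among its libraries differed. In knockout replicates 1, 2 and 3 the macrophage marker sum was 7268, 5349 and 4401 CPM. The classical list summed to 338, 439 and 707 CPM in these libraries, and the alternative list to 710, 709 and 819 CPM.

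**Figure D5:**
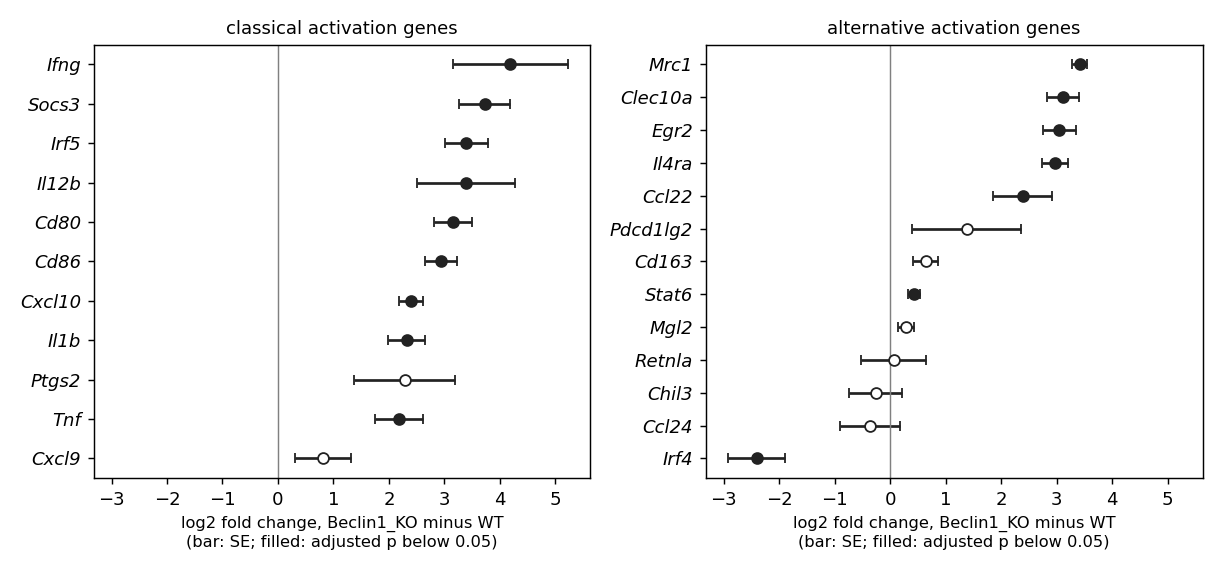
Plot of log2 fold changes, Beclin1_KO minus WT (horizontal axis, bars give the SE), of companion genes of classical and alternative macrophage activation; filled points passed an adjusted p of 0.05, and Il10, at 0 in all WT libraries, is left out. The classical companions shown lie between 0.81 and 4.18, and alternative ones between -2.40 and 3.41.

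Enzymes that remove superoxide and peroxide, and those that supply NADPH in the cytosol, fell more often than they rose. Over all genes tested, 24.8% rose and 21.8% fell, with a median log2 fold change of 0.05. Of 20 removal genes, 2 rose (Gpx7 and Txnrd1), 9 fell and 9 did not pass, with a median log2 fold change of -0.31. This split depended on the scale: in FPKM 5 rose and 7 fell, with a median of 0.001. Without the pair rich in muscle markers 2 rose and 4 fell. Sod1, the cytosolic superoxide dismutase, fell 2.63-fold to 302 ± 33.3 CPM, against 794 ± 63.9 CPM in WT (adjusted p = 0.000543), and Txnrd2, a mitochondrial thioredoxin reductase, fell 2.70-fold (adjusted p = 0.000811). Gpx8 fell 2.33-fold and Gpx7 rose 2.19-fold. Of 8 NADPH supply genes, 5 fell and 3 did not pass, with a median of -0.86, against 4 lower in FPKM and 2 without that pair. Me1, malic enzyme, fell 9.64-fold to 122 ± 17.0 CPM, against 1175 ± 690 CPM in WT (adjusted p = 0.00231), and Pgls of the pentose phosphate pathway, Idh1 and the NAD kinase gene Nadk fell 2.24-fold, 1.83-fold and 1.72-fold. The adipocyte marker sum, given beside Nos2, was lower in the same libraries. The part of adipocytes in the changes of these enzymes was not tested.

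The genes whose profile over the 6 libraries lay nearest to that of each lead gene were found by the root mean square difference of centred log2 CPM. For Cybb they were Adam8 (0.08 on the log2 scale), Soat1 (0.09) and Pik3ap1 (0.10). Nox4 had Lrrn2 (0.14), Cd44 (0.16) and Srpx (0.16) nearest. Nos2 lay nearest to Wdr4 (0.05), Dennd3 (0.06) and Pnkd (0.06), which had log2 fold changes of -0.95, -0.81 and -0.83. Arg1, at its few reads, lay nearest to Nek2 (0.18), Ncapg (0.27) and Hmmr (0.29). Among the 8 genes themselves, the closest pair was Cyba and Ncf4 (0.13), followed by Cyba and Ncf1 (0.14), while Nox4 lay 0.49 from Cybb and 0.29 from Ncf1.

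Ncf4 and Rac2 lie on chromosome 15, 296586 bases apart. Of the 8 genes tested between them, 4 rose (Csf2rb, Csf2rb2, Il2rb and C1qtnf6) and 2 fell (Tst and Mpst). The other 2, Kctd17 and Tmprss6, did not pass. The shares over all genes tested were 24.8% higher and 21.8% lower. Csf2rb and Csf2rb2 are near-identical copies, and how the authors divided their reads was not stated.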

How the data were processed

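RNA was extracted with Trizol and made into stranded polyadenylated-RNA libraries (TruSeq Stranded mRNA), per the labels' protocols. The submitters' processing notes list, with no roles, mm10, DESeq2, StringTie 1.3.4d, HISAT2 2.1.0, Trimmomatic and bcl2fastq 2.20.0. Per the file headers, the authors deposited read counts per gene (whole numbers, not normalized) and FPKM, which is scaled to length and depth but not to composition. The authors' deposited comparison holds a signed fold change, held as a score whose sign is minus for genes lower in Beclin1_KO. It also holds the authors' p-values, unadjusted and Benjamini-Hochberg adjusted. A further 6 per-sample columns were not used.

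The counts went through edgeR 4.0.16 (R 4.3.3): filterByExpr (15347 of 18507 genes kept), TMM scaling (factors 1.09 to 1.19 in Beclin1_KO and 0.83 to 0.94 in WT), and a robust quasi-likelihood fit with genotype as its only term. Adjustment was by Benjamini-Hochberg across every gene tested. Standard errors were taken as the absolute log2 fold change divided by the root of F. "Rose" and "fell" mean an adjusted p below 0.05. Samples are biological replicates per the series' design text. The script was tested on simulated data. Alternatives used DESeq2 1.42.0, limma 3.58.1 on FPKM values (pseudocount 1 or 0.1, log2, keeping genes that reach an FPKM of 1 in 3 libraries), other scalings and filters, and left-out libraries. Ratios were tested on a log2 scale, those of Arg1 on the linear scale, since a library held 0 reads. Profiles used log2(CPM + 0.1). Positions came from RefSeq on GRCm38.p6, the assembly behind mm10, by Entrez Gene number.

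The 8 genes and the gene lists were chosen with earlier results of these data known. Further genes were named by rule: the tested oxidase genes, up to 4 called genes per list by smallest p, and the 3 nearest profiles of Cybb, Nox4, Nos2 and Arg1. Some genes of the lists are counted but not reported here by name.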

Additional observations from a re-analysis of the deposited data

How the results depend on the processing

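Under 18 alternatives the 6 oxidase genes kept their direction and passed each time, with log2 fold changes of 4.06 to 4.82 for Cybb, 1.76 to 4.26 for Nox4 and 3.21 to 4.23 for the other 4. Nos2 passed in 16. On log2(FPKM + 1) its log2 fold change was -0.40 (adjusted p = 0.0784), with 0 of the 8 genes and 1706 of all genes lower. On log2(FPKM + 0.1) it was -0.48 (0.0773), with 0 and 1696 lower, against 3340 lower of all genes by TMM. FPKM lacks composition scaling, and all genes were higher there by a median of 0.32 and 0.34 on the log2 scale. When Beclin1_KO replicate 1 and WT replicate 2, richest in muscle markers, were left out, 2054 genes were lower. Leaving out each library gave a log2 fold change of Nos2 of -0.97 to -0.76 (adjusted p 0.00505 to 0.0259), and 6 to 7 of the 8 genes higher, the added gene being Arg1 without Beclin1_KO replicate 1, as with DESeq2. The difference of Arg1 per macrophage marker was -0.0137 to 0.00432 percentage points, positive without WT replicate 3, and the cause was not tested. Same-numbered libraries had correlations of -0.405, 0.0226 and 0.397 in their deviations from the group means. Whether replicate numbers pair the samples cannot be told from these values. The strongest correlations, 0.568 and -0.561, were those of WT replicate 2, rich in muscle markers, with Beclin1_KO replicates 1 and 3. With the replicate number as a block, 6403 genes passed, and the calls of the 7 tested genes did not change. Depth limits Arg1, which had at most 4 reads per WT library.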

Other observations

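Il6, a cytokine gene of the classical list, did not reach the low-count filter and was not tested. It had 6, 18 and 5550 reads in the Beclin1_KO libraries and 0 in each WT library. Beclin1_KO replicate 3, which held the 5550 reads, was the knockout library with the lowest Cybb (112 CPM), Cyba (129 CPM) and macrophage marker sum (4401 CPM), and the highest Nos2 (13.6 CPM). Il23a, also not tested, had 0 reads in every Beclin1_KO library and 4, 30 and 0 reads in WT. Both were named after their values were seen.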
